A study of Homo sapiens with 6 samples.

Results

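The genes described here are 52 genes of mitosis: the kinases and cyclins that start it, the spindle and its motors, the kinetochore, the spindle checkpoint, and the proteins that shape and part the chromosomes. They were taken as a list of symbols, chosen with earlier results of these data known. The symbols were looked up among the 19775 genes with a probe set of their own symbol, and all 52 were found. Where a gene had several probe sets, its brightest (by mean over the 6 arrays) stood for it. All 52 also passed the filter on low values, a mean signal above 12.9 (the median of all signals, used as a floor), which 11921 genes passed. No member had a signal at or under that floor on any array, the lowest being 45.7 and the highest 3037.

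The cells were HepG2, a human hepatoblastoma line. One arm carried a control siRNA (siControl). The other carried siRNA to HNF4A, a liver nuclear receptor (siHNF4A). TGF-beta, a cytokine that slows the division of many epithelial cells, was then given at 3 ng/ml for 0, 1.5 or 24 h; the 0 h cells received none. All cells were transfected, and both siRNA arms received the same doses. Each of the 6 combinations had 1 Affymetrix array and thus no replicate. The later arrays all had TGF-beta, which therefore cannot be told apart from time in culture. HNF4A's own level was not analysed here, and the knockdown stays unchecked. Hepatocyte-type markers (ALB, AFP, APOA1 and 6 others) had signals of 491.8 to 10763 on all arrays. Of 10 markers of blood, endothelial and fibroblast cells 4 had a mean above the floor, and 3 (PTPRC, CDH5 and VWF) lay at or under it on all arrays. Their summed signal was 162 and 197 at 0 h, 170 and 122 at 1.5 h, and 241 and 244 at 24 h (siControl first), and their part in the results was not tested.

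All 3 control probe sets for the small-subunit ribosomal RNA set siControl at 0 h apart. The 5' one read 8600 there and 69.8 to 736.5 on the other 5 arrays, the middle one 1333 and 53.0 to 258.7, and the 3' one 462 and 87.6 to 151.9. Array medians lay between 12.4 and 13.3.

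As background, a cell enters mitosis when cyclin B and its kinase CDK1 are switched on. Kinetochores then tie the chromosomes to spindle microtubules, a checkpoint holds the cell until every chromosome is attached, and the anaphase-promoting complex ends mitosis by marking cyclin B and securin for destruction. The genes for these proteins are transcribed mostly in G2 and M phase, so their RNA in a culture tends to follow how many cells divide. In bulk RNA, fewer cells in mitosis and less RNA per cell cannot be told apart.

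The 24 h comparison asked which of these genes differed after 24 h with TGF-beta. In limma 47 of the 52 members fell and none rose over both siRNAs, 5 did not pass, and the median difference was -0.90 on the log2 scale. Among all 11921 genes tested 7.82% fell and 7.22% rose, and the median was -0.03. Both 24 h signals lay under all 4 earlier signals for 50 of the 52, the exceptions being BUB3 and ECT2, and for 18.4% of all genes. Set against 1.5 h, a comparison that shares both 24 h arrays and the fitted spread, 47 members fell and none rose, with 7.01% of all genes falling and 6.38% rising. The 5 that did not pass, the same in both comparisons, were CDC25B, CKS2, PTTG1, BUB3 and ECT2. A gene passed where its p, adjusted over all genes tested (Benjamini-Hochberg), was under 0.05. Differences below are log2 values at 24 h minus 0 h, averaged over the siRNAs, and ± gives the standard error. Standard errors are limma's, from an additive model of siRNA plus time with 2 residual degrees of freedom. With 1 array per combination, a gene's own spread is the disagreement of a difference between siRNAs or times. Limma draws it toward the spread of all genes at a like signal, which has more weight (12.6 prior degrees of freedom). A standard error is thus not that gene's own disagreement alone.

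The count of 47 rests in part on single arrays and on how the spread was modelled. Without the siHNF4A 24 h array it was 13, without the siControl 24 h array 42, without the siHNF4A 0 h array 41, and without the siControl 0 h array 44. Calls over all genes were also fewer without each of these arrays. The members' count was 17 with limma's trend dropped and 0 with dim genes kept, settings that alter the test but not the differences. Over all genes the fit as reported called 1793 of 11921, against 457 with the trend dropped and 1 of 19775 with dim genes kept. For the count of 47 against 1.5 h, leaving out the siHNF4A 24 h array gave 18 and the siHNF4A 1.5 h array 28. Between the 3' and 5' control probe sets of ACTB the signal ratio was 1.20 (siControl) and 1.17 (siHNF4A) at 24 h and 1.20 to 1.28 on the earlier arrays. Among the markers of other cell types PECAM1, an endothelial marker, rose at 24 h by 1.01 ± 0.27 (limma adjusted p = 0.0221), with signals of 47.0, 81.8 and 127 in siControl and 65.7, 57.5 and 98.0 in siHNF4A. PDGFRB, a marker of fibroblasts and pericytes, rose against 1.5 h by 1.29 ± 0.39 (limma adjusted p = 0.0394), with signals of 27.0, 31.8 and 51.4 in siControl and 41.3, 12.7 and 47.9 in siHNF4A. The part of these values in the members' differences was not tested.

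**Figure D1:**
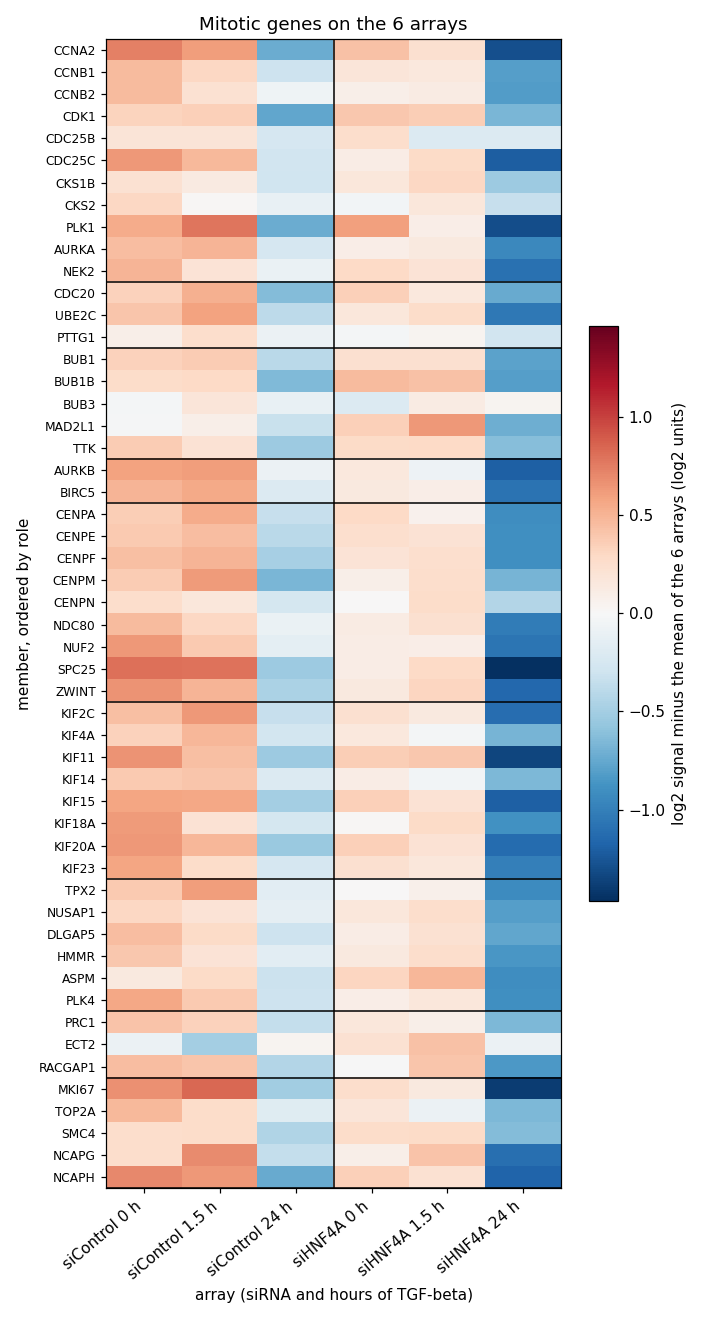
Signals of the 52 members on the 6 arrays as log2 signal minus the member's mean over the arrays (colour, log2 units); rows are ordered by role, with black lines between roles and between the siRNA arms. Both 24 h signals lie under the other 4 for 50 rows, and the siHNF4A 24 h array was the lowest of all 6 for 48 members, against 27.9% of all genes.

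Promoters of the members, whether or not they passed, were searched and some are shown, as RefSeq gives them for the build GRCh38.p14. Genes of late cell cycle phases are known to carry a short element called CHR, bound by the MuvB complex, often beside CCAAT boxes bound by NF-Y, whereas genes of DNA synthesis are known for E2F sites. The windows searched held 250 bases before the annotated start and 50 after it, on both strands. The letters searched were TTTGAA and TTTAAA for CHR, CCAAT for the CCAAT box, and TTTGGCGC, TTTCCCGC, TTTCGCGC and TTTGCCGC for E2F. Other forms of these elements were not searched, so a gene without a match may still hold one. Windows were found for 44 members (58 windows, since some have several starts). AURKA, UBE2C, BUB3, TTK, BIRC5, CENPM, TPX2 and RACGAP1 were not matched. The CHR letters stood in 40 of the 44 (90.9%) and in 27.9% of the 27305 genes with a window. The 4 members without them were CCNA2, NEK2, BUB1 and AURKB. Within the 50 bases before the start they stood in 22 of the 44 members and in 5.49% of all genes. A CCAAT box was found in 36 of the 44 (81.8%) and in 39.7% of all genes, and 22 of the 44 had a window with at least 2, against 12.9% of all genes. E2F letters stood in 4 of the 44 members (9.09%) and in 3.99% of all genes. In the list of G1/S and replication genes, E2F letters stood in 13 of 23 genes (56.5%) and CHR letters in 4 (17.4%). A CCAAT box was found in 15 of these 23 (65.2%), and 10 (43.5%) had a window with at least 2. These are shares of letters found; whether any of them is bound or acts in HepG2 was not tested.

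The 150 bases before the start are printed for members that fell (CCNB1, CCNB2, CDC20, PLK1, MKI67, KIF11), for a pair that did not pass (PTTG1, CKS2), for CCNA2, which fell and has no match to the CHR letters, and for GINS2, a replication gene shown for its E2F letters. Capitals mark whole matches of any of the searched letters on either strand; in MKI67 a CHR and a CCAAT match share a base, and in PTTG1 CCAAT matches of opposite strands share bases. The positions are, in this order, chr5:69167000-69167149 (plus strand), chr15:59104996-59105145 (plus strand), chr1:43358831-43358980 (plus strand), chr16:23678739-23678888 (plus strand), chr10:128126424-128126573 (minus strand), chr10:92592980-92593129 (plus strand), chr5:160421705-160421854 (plus strand) (the first of its 2 windows), chr9:89311045-89311194 (plus strand), chr4:121823884-121824033 (minus strand) and chr16:85688955-85689104 (minus strand).
CCNB1: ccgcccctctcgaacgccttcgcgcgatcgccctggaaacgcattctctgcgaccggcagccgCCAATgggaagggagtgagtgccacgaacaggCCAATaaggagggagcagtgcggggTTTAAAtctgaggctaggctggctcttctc
CCNB2: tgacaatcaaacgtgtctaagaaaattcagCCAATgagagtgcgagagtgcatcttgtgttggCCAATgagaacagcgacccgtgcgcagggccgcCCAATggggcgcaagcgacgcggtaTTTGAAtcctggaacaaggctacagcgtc
CDC20: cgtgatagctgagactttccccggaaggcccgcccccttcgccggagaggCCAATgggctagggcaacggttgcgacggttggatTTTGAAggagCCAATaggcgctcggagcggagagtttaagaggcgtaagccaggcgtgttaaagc
PLK1: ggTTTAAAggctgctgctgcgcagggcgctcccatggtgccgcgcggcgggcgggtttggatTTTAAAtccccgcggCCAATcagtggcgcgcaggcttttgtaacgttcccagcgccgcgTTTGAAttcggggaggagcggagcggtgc
MKI67: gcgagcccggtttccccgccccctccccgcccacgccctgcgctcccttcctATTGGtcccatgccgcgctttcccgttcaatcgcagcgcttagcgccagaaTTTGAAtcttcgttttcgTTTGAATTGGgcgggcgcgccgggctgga
KIF11: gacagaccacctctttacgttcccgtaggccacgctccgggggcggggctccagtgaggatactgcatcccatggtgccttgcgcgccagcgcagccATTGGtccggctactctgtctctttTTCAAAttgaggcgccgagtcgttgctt
PTTG1: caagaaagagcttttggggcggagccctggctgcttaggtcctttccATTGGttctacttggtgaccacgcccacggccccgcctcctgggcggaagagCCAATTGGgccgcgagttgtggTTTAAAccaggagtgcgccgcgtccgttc
CKS2: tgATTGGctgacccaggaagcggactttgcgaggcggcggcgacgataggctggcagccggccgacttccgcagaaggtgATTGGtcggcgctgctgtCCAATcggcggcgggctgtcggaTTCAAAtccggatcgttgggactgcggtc
CCNA2: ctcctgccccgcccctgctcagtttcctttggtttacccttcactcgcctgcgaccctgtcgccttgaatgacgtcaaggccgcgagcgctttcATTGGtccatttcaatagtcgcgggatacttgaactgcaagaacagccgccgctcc
GINS2: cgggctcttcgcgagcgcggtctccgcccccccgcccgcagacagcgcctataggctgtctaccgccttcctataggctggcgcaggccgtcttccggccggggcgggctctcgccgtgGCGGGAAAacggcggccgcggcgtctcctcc
Counted back from the start (-1 is the last base before it), a CHR match lay at -30 to -25 in CCNB1, at -29 to -24 in CCNB2, PLK1, MKI67, CKS2 and this window of PTTG1, and at -28 to -23 in KIF11. In CDC20 the nearest lay at -65 to -60. In the windows printed, PTTG1 and CKS2 held these letters at the same distance as PLK1. The second window of PTTG1 held them at -84 to -79. Whether the letters or their distance bear on the 24 h differences was not tested.

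Among the mitotic kinases, cyclins and their regulators 9 of 11 fell at 24 h. Signals below are the deposited linear intensities, given at 0, 1.5 and 24 h in that order. CCNA2, the cyclin of S and G2 phase, had signals of 1073, 986 and 389 in siControl and 867, 756 and 265 in siHNF4A. Both 24 h signals lay far under the other 4, and it fell by 1.59 ± 0.14 (limma adjusted p = 5.03e-06). PLK1, a kinase needed for mitotic entry and spindle assembly, had signals of 678, 799 and 279.9 in siControl and 702, 498 and 189 in siHNF4A. It fell by 1.58 ± 0.17, with the siHNF4A 1.5 h signal also under both 0 h signals. CCNB1, the cyclin B that activates CDK1, had signals of 2026, 1814 and 1193 in siControl and 1664, 1639.5 and 843 in siHNF4A, and fell by 0.87 ± 0.12. CDK1, the kinase that drives mitosis, had signals of 1626, 1654 and 765 in siControl and 1708, 1674 and 816 in siHNF4A. On this probe set the siRNA arms of CDK1 were close at each time, and it fell by 1.08 ± 0.11. Other bright probe sets of CDK1 had siRNA differences of -0.21 and -0.16, untested. Their siHNF4A signals were the lower at 0 and 24 h and the higher at 1.5 h. AURKA, a kinase of the spindle poles, had signals of 1602, 1649.8 and 986 in siControl and 1253, 1297 and 607 in siHNF4A, and fell by 0.87 ± 0.13. CCNB2 (-0.71), the phosphatase CDC25C (-1.12), the small CDK subunit CKS1B (-0.61) and the centrosomal kinase NEK2 (-0.99) also fell.

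The other 2 of this role did not pass. CDC25B, a phosphatase that switches on CDK1, had signals of 279, 278 and 206 in siControl and 292, 213 and 213 in siHNF4A. Its 24 h signals were the lowest, but the siHNF4A 1.5 h signal was nearly as low, and the difference was -0.45 (limma adjusted p = 0.116). CKS2, a close relative of CKS1B, had signals of 3037, 2497 and 2280.2 in siControl and 2384, 2755 and 1946 in siHNF4A. The difference was -0.35 (limma adjusted p = 0.0678), and it passed with quantile normalization (-0.44), without either 1.5 h array and without the siHNF4A 0 h array.

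Of the partners of the anaphase-promoting complex, CDC20, its mitotic activator, had signals of 636, 725 and 324 in siControl and 641, 563 and 302 in siHNF4A, and fell by 1.03 ± 0.15. UBE2C, the ubiquitin-conjugating enzyme of that complex, had signals of 789, 899 and 455 in siControl and 671, 719 and 288 in siHNF4A, and fell by 1.01 ± 0.15. The 24 h signals of both genes lay well apart from the earlier ones. PTTG1, the securin that restrains the enzyme separating sister chromatids, had signals of 1952, 2202 and 1729 in siControl and 1806, 1891 and 1515 in siHNF4A. Its range was narrow, and the difference of -0.21 did not pass (limma adjusted p = 0.218); the probe set is of the kind ending in _x_at, in which some probes match other transcripts.

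Of the 5 spindle checkpoint genes 4 fell. BUB1B, a checkpoint kinase-like protein, had signals of 519.8, 525 and 276 in siControl and 591, 578 and 246 in siHNF4A, and fell by 1.09 ± 0.15. The kinases BUB1 (-0.87) and TTK (-0.91) and the inhibitor of CDC20, MAD2L1 (-0.69), fell as well. BUB3, which brings BUB1 to kinetochores, had signals of 2254, 2608 and 2142 in siControl and 2010.2, 2506 and 2380.3 in siHNF4A, with no order by time, and a difference of 0.09 (limma adjusted p = 0.673). Its probe sets disagreed: the one used ends in _x_at, 3 others well above the floor had -0.43, -0.48 and -0.15, and one near the floor had 0.45, none of them tested.

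Both chromosomal passengers fell. AURKB, the kinase that corrects wrong attachments, had signals of 280.5, 286 and 177 in siControl and 209, 178 and 81.6 in siHNF4A, and fell by 1.01 ± 0.20. BIRC5 (survivin), which places AURKB at the centromere, had signals of 1090.5, 1130.2 and 668 in siControl and 847, 820.2 and 362 in siHNF4A, and fell by 0.97 ± 0.15. For both genes the siHNF4A signals were the lower at each time.

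All 9 centromere and kinetochore genes fell, with a median of -0.96. SPC25, a subunit of the NDC80 complex that holds microtubules, had signals of 383, 380.1 and 151 in siControl and 236, 268 and 79.3 in siHNF4A, and fell by 1.46 ± 0.18. ZWINT, which links the checkpoint to the kinetochore, had signals of 2053, 1842 and 948 in siControl and 1444, 1617 and 585 in siHNF4A, and fell by 1.21 ± 0.13. The 24 h signals stood clear of all others for both. NUF2, also of the NDC80 complex, had signals of 352, 296 and 206 in siControl and 245, 242 and 108 in siHNF4A, and fell by 0.97 ± 0.19. CENPN, a reader of the centromeric histone, had signals of 948, 892 and 663 in siControl and 801, 955 and 589 in siHNF4A. Its fall of 0.48 ± 0.13 was the smallest of the role (limma adjusted p = 0.0251), and the call was lost without the siControl 0 h array or without either 24 h array. The others were the centromeric histone CENPA (-0.95), CENPE (-0.96), CENPF (-1.01), CENPM (-0.90) and NDC80 (-0.86).

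The 8 mitotic kinesins, motors that move along or shorten microtubules, all fell, with a median of -1.05. KIF11, which pushes the spindle poles apart, had signals of 450.2, 387 and 197 in siControl and 366, 375 and 112 in siHNF4A, and fell by 1.45 ± 0.19. KIF2C, which removes microtubule ends at the centromere, had signals of 714, 818 and 416 in siControl and 616, 579 and 241 in siHNF4A, and fell by 1.06 ± 0.16. KIF14, a motor of cytokinesis, had signals of 356, 363 and 238 in siControl and 295, 265 and 173 in siHNF4A, and its fall of 0.68 ± 0.16 was the smallest of the 8. In each of the 3 both 24 h signals were the lowest. The rest ran from -1.33 for KIF20A and -1.31 for KIF15 through KIF23 (-1.03) and KIF18A (-0.89) to KIF4A (-0.73).

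All 6 genes of spindle assembly and centrioles fell. PLK4, the kinase that starts centriole duplication, had signals of 332, 291 and 182 in siControl and 239, 251 and 119.8 in siHNF4A, and fell by 0.93 ± 0.18. TPX2, which activates AURKA on microtubules, had signals of 1488, 1746 and 1026 in siControl and 1144, 1202 and 599.6 in siHNF4A, and fell by 0.73 ± 0.13. NUSAP1, a microtubule bundling protein, had signals of 907, 847 and 673 in siControl and 824, 882 and 421 in siHNF4A, and fell by 0.70 ± 0.16. The 24 h fall of NUSAP1 was larger in siHNF4A (-0.97) than in siControl (-0.43), a difference that did not pass its own test below. ASPM (-0.85), DLGAP5 (-0.82) and HMMR (-0.78) fell likewise.

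Of the central spindle and cytokinesis genes, RACGAP1, part of centralspindlin, had signals of 826, 806 and 450.2 in siControl and 606, 804 and 339 in siHNF4A, and fell by 0.86 ± 0.15, and PRC1, which bundles the central spindle, fell by 0.80 ± 0.13. ECT2, the exchange factor that RACGAP1 recruits to switch on RhoA, had signals of 483, 362 and 526 in siControl and 597, 689.8 and 484 in siHNF4A. It showed no common order by time, and its difference was -0.09 (limma adjusted p = 0.811). A second probe set gave -0.13 and a dim one near the floor -0.68, untested. Without the siHNF4A 24 h array the difference of ECT2 was 0.28.

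All 5 chromosome structure genes fell. MKI67, the proliferation marker that coats mitotic chromosomes, had signals of 367, 414 and 163 in siControl and 277, 256 and 88.2 in siHNF4A, and fell by 1.41 ± 0.18. NCAPH, a condensin subunit, had signals of 399.6, 383 and 148 in siControl and 313, 288 and 109 in siHNF4A, and fell by 1.48 ± 0.17. TOP2A, which untangles sister DNA, had signals of 1805, 1563 and 1149 in siControl and 1474, 1228 and 826 in siHNF4A, and fell by 0.74 ± 0.12. In all of these the 24 h signals lay under the earlier ones in both arms. The condensin genes NCAPG (-0.90) and SMC4 (-0.80) completed the role.

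The 26 members with several probe sets had 41 others with a mean above the floor, from the same arrays, and 40 of these were lower at 24 h (the exception was the BUB3 probe set near the floor), against 52.7% of such probe sets over all genes tested. With the probe sets ending in _x_at or _s_at left out, 38 members remained and 32 fell.

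The early comparison asked what differed at 1.5 h. No member passed in limma. Among all genes 0.0839% rose and 0.0168% fell. At an unadjusted p under 0.05 there were 2 members, both higher, BUB3 at 0.26 and NCAPG at 0.38. Of all 11921 genes 174 were higher and 190 lower at that p. The median of the members was -0.02, with single-array medians of -0.01 in siControl and 0.02 in siHNF4A. No member was 2-fold lower in either arm (0.721% of all genes in siControl and 1.47% in siHNF4A) and none 2-fold higher, the range being -0.41 to 0.44 in siControl and -0.50 to 0.41 in siHNF4A.

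The arms were then set side by side at 24 h, as differences between single arrays with no replicate. The median of the members was -0.76 in siControl and -1.06 in siHNF4A, against -0.01 and -0.05 over all genes. In each arm 51 of the 52 were lower (51.2% and 53.5% of all genes). At least 2-fold lower were 11 of 52 in siControl (2.6% of all genes) and 30 in siHNF4A (4.61%). The difference at 24 h was the lower in siHNF4A for 45 of 52 members and for 52.6% of all genes. The 7 exceptions were CDK1, CKS2, BUB3, TTK, CENPM, CENPN and RACGAP1. MAD2L1 had signals of 957, 1022 and 770.3 in siControl and 1226, 1500.4 and 587 in siHNF4A, so its difference was -0.31 in siControl and -1.06 in siHNF4A. A second bright probe set of MAD2L1 had 949, 853 and 476 in siControl and 1102, 1308 and 481 in siHNF4A, a smaller gap between the arms. NEK2 had -0.59 and -1.38, and ASPM -0.46 and -1.23. Other probe sets well above the floor also had a smaller gap for NEK2 and HMMR. The gap was similar for NUSAP1 and larger for ECT2, and none of these probe sets was tested.

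Whether the siRNA difference at 24 h departed from its mean at 0 and 1.5 h was tested in a fit with 1 residual degree of freedom. In limma 0 of the 52 members passed, as did 0% of all genes, and the smallest adjusted p of a member was 0.988 (MAD2L1, -0.85 ± 0.23). At an unadjusted p under 0.05, 7 members had lower values and none higher: MAD2L1, ASPM, NEK2, NUSAP1, HMMR, ECT2 and NDC80, named after their values were seen. Over all genes 275 had lower and 268 higher values at that p. For no member was the siRNA difference at 24 h therefore shown to depart from its mean at 0 and 1.5 h.

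**Figure D2:**
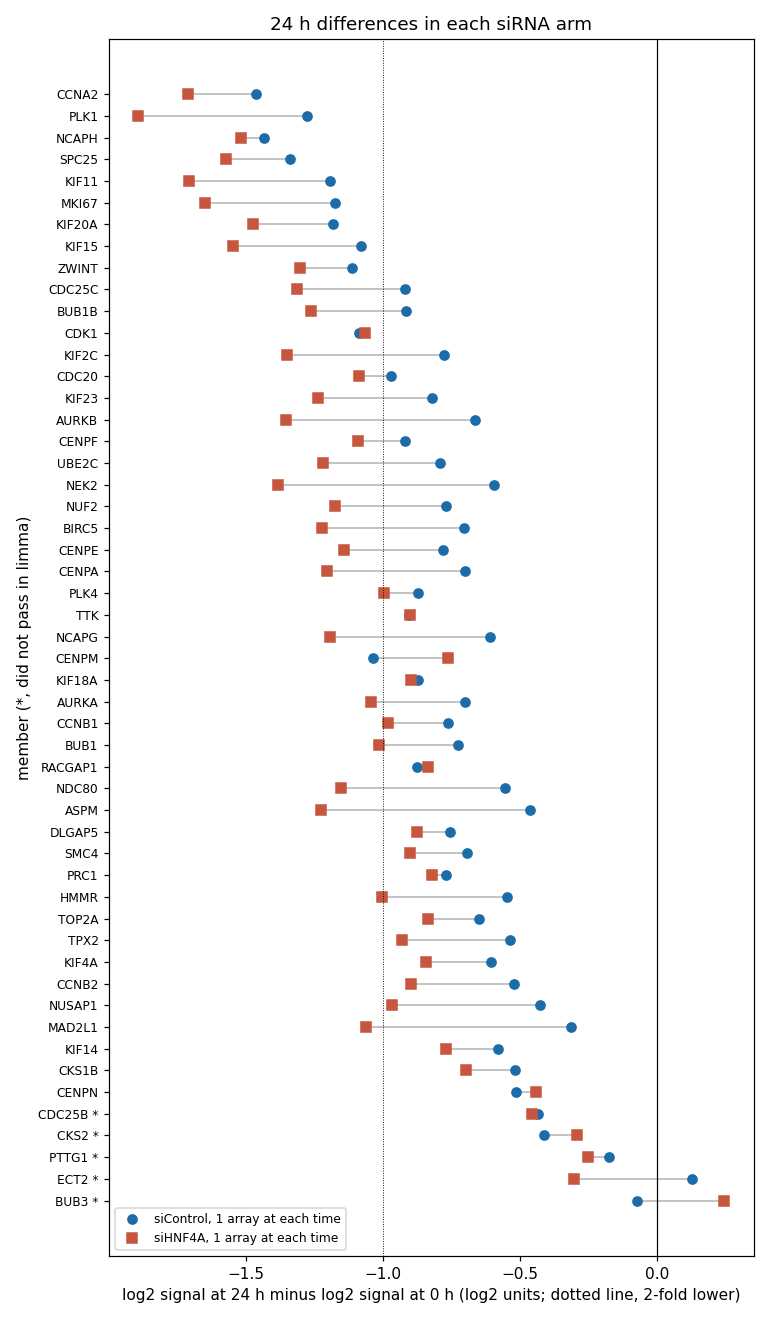
Log2 signal at 24 h minus 0 h (x axis, log2 units) for each member (y axis) in siControl (circles) and siHNF4A (squares), 1 array per point; an asterisk marks the 5 members that did not pass in limma, and the dotted line stands at 2-fold lower. The siHNF4A point lies further left for 45 of the 52, and 30 squares and 11 circles reach the dotted line.

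The siRNA comparison asked which members differed between siHNF4A and siControl over the 3 times, again in log2. In limma 12 of 52 members fell with siHNF4A, none rose and 40 did not pass, while 4.16% of all genes fell and 3.9% rose. The median of the members was -0.37, against -0.04 over all genes. The 12 were CCNA2 (-0.42), AURKA (-0.47), UBE2C (-0.41), AURKB (-0.74), BIRC5 (-0.57), NUF2 (-0.58), SPC25 (-0.71), ZWINT (-0.46), KIF2C (-0.50), TPX2 (-0.56), MKI67 (-0.66) and TOP2A (-0.37). They came from 7 of the 9 roles, with both chromosomal passengers among them and no gene of the spindle checkpoint or of cytokinesis. The adjusted p of UBE2C, 0.0496, lay just inside the threshold of 0.05. At an unadjusted p under 0.05, 33 members were lower and 1 higher, while of all 11921 genes 1449 were lower and 1102 higher. Each of the 12 was lower in siHNF4A at each time, in the signals given above. TPX2 had the smallest limma adjusted p, 0.00383, with single-array differences of -0.38, -0.54 and -0.77 at 0, 1.5 and 24 h. For AURKB these were -0.43, -0.69 and -1.12, the last being the only 2-fold lower value of a member at 24 h (3.05% of all genes), and for SPC25 -0.70, -0.51 and -0.93.

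At 0 h 43 of the 52 were lower in siHNF4A (51.7% of all genes), at 1.5 h 38 (54.7%) and at 24 h 49 (53.1%), and 34 were lower at all times (23.7%). The medians were -0.25, -0.22 and -0.56. The call rested on the 24 h arrays: 0 members passed without the 24 h pair or without either of its arrays, when the median was -0.23. Over all genes 242 passed without the 24 h pair, beside 961 with all arrays. With the 1.5 h pair left out 7 members passed. None passed when probe sets were averaged per gene, when the trend was dropped or when dim genes were kept. Over all genes these settings gave, in that order, 227 of 11240, 45 of 11921 and 0 of 19775.

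CDK1 (0.06), BUB1B (0.05), TTK (-0.03), SMC4 (-0.06), CKS1B (-0.04) and BUB3 (-0.02), named after their values were seen, had siRNA differences near 0, none of which passed. ECT2 had the highest siRNA difference of the members, 0.37 (limma adjusted p = 0.189), from 0.31 at 0 h and 0.93 at 1.5 h to -0.12 at 24 h. The sign of the siRNA difference of CDK1, CKS1B, TTK and BUB3 turned with a choice of scaling or probe set.

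**Figure D3:**
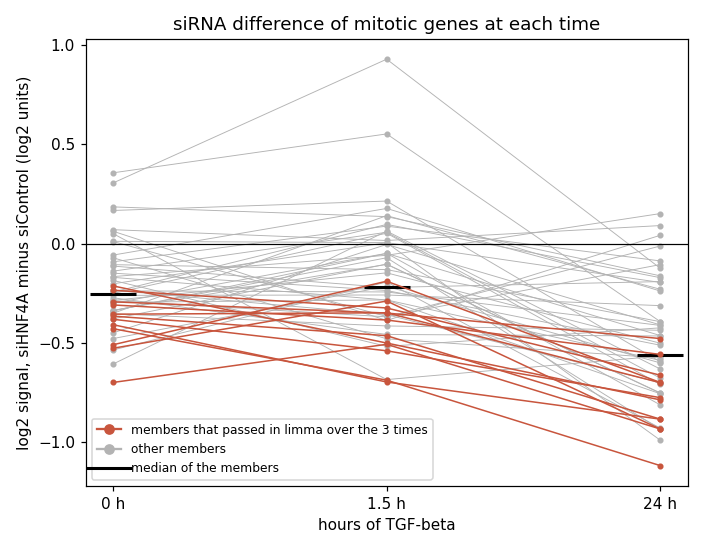
Log2 signal of siHNF4A minus siControl (y axis, log2 units) at 0, 1.5 and 24 h of TGF-beta (x axis), 1 line per member and 1 array per siRNA and time; coloured lines are the 12 members that passed in limma and black bars the medians of the 52. The medians are -0.25, -0.22 and -0.56, and every coloured line lies below 0 at each time.

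Other genes of the same processes were counted from lists of 97 symbols that are not members, of which 92 could be tested. In limma 46 of the 92 fell at 24 h and none rose (7.82% and 7.22% of all genes), with a median of -0.72. For the siRNA 6 fell and 2 rose, or 6.52% and 2.17%, beside 4.16% and 3.9% of all genes. Those that fell were SKA1 (-0.72), SPDL1 (-0.46), CDCA8 (-0.55), SMC3 (-0.48), NCAPD2 (-0.71) and TUBG1 (-0.48). Those that rose were MIS12, a kinetochore base protein (0.56), and WEE1, the kinase that holds CDK1 inactive (0.62). Single-array siRNA differences at 0, 1.5 and 24 h were 0.42, 0.77 and 0.49 for MIS12. For WEE1 they were 0.19, 0.28 and 1.40, so its value lay mostly in the 24 h arrays. Among centromere and kinetochore genes 17 of 28 fell at 24 h, with CENPU at -1.53 and the checkpoint ATPase TRIP13 at -1.42, while ZW10 (-0.10) and NSL1 (-0.10) did not pass. Of condensin and chromosome structure genes 6 of 8 fell, including the lamin LMNB1 (-1.18), the condensin NCAPD3 (-1.17) and SMC2 (-0.64), while KIF22 (-0.67) did not pass. Of spindle, centrosome and cytokinesis genes 12 of 19 fell, with DEPDC1 at -1.29 and the motor KIFC1 at -1.19, while TROAP (-0.30) and the microtubule polymerase CKAP5 (-0.17) did not pass. Mitotic entry regulators fell in 6 of 10 cases, with the phosphatase CDC25A at -1.62 and the cyclin CCNF at -0.97; CDK7 (-0.0017) and CCNH (0.04), parts of the CDK-activating kinase, did not pass.

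Of the anaphase-promoting complex, its partners and an inhibitor 1 of 14 fell, FBXO5 (EMI1), the inhibitor, at -1.31. This is 7.14% of the list, near the 7.82% of all genes. UBE2S (-0.46), FZR1 (-0.03) and ANAPC7 (0.0046) did not pass. Of passengers and cohesion genes 4 of 14 fell: CDCA5 (sororin) at -1.61, the passenger CDCA8 (borealin) at -1.57, the cohesin subunit SMC3 at -0.49 and, named after its values were seen, the cohesin protector SGO2 at -1.02. STAG2 (-0.06) and PDS5A (-0.08) did not pass.

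Among 15 regulators of mitotic transcription 3 fell at 24 h (20.0%) and none rose, beside 7.82% and 7.22% of all genes. FOXM1, which activates G2 and M genes, had signals of 198, 293 and 123 in siControl and 230.3, 175 and 104 in siHNF4A, and fell by 0.91 ± 0.22. MYBL2, the activating partner of MuvB, had signals of 363, 364 and 225 in siControl and 336, 320.5 and 124 in siHNF4A, and fell by 1.06 ± 0.19. The pocket protein RBL1 had signals of 94.3, 93.1 and 57.0 in siControl and 91.5, 97.3 and 32.4 in siHNF4A, and fell by 1.11 ± 0.27. In all of these both 24 h signals were the lowest. RBL2 (-0.07) and NFYC (-0.05) had the smallest differences. For the siRNA 1 of the 15 fell (6.67%, with 4.16% of all genes), TFDP1, the partner through which E2F proteins bind DNA, with signals of 999.6, 958 and 705 in siControl and 432, 395 and 348 in siHNF4A. Its siHNF4A signals were all under its siControl signals, and it fell by 1.17 ± 0.11 (limma adjusted p = 2.26e-05).

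The related list of G1/S and replication genes, 26 of them tested, had 25 that fell at 24 h and a median of -1.30. The mitotic genes had 47 of 52 and -0.90, and 7.82% of all genes fell. CDC6, which loads the replicative helicase, had -2.00 and MCM10 -1.67, and the smallest values were those of the sliding clamp PCNA (-0.59) and CCNE1 (-0.53, not passing). The siRNA median of this list was -0.19, and 5 of 26 fell (19.2%, with 4.16% of all genes). They were the helicase subunits MCM2 (-0.50), MCM5 (-0.58) and MCM7 (-0.55), GINS2 (-0.67) and the licensing factor CDT1 (-0.91). The difference between the lists was not tested.

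**Figure D4:**
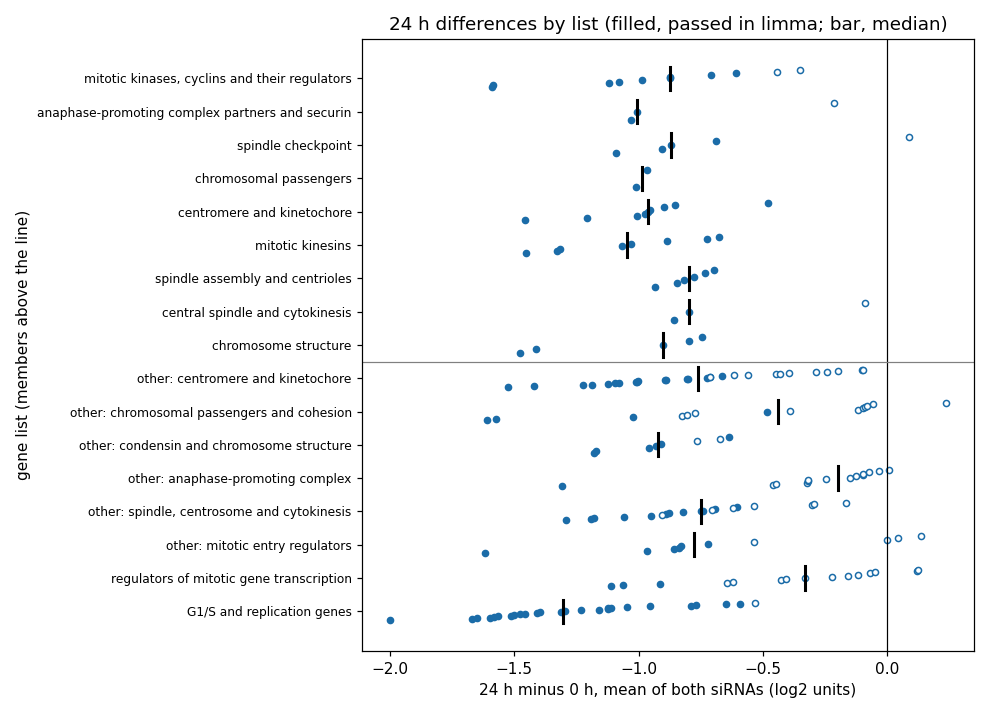
Differences at 24 h, the mean of both siRNAs (x axis, log2 units), for the members by role (above the grey line) and for the other lists (below it); each point is a gene, filled where it passed in limma, and a bar marks each list's median. The members' roles have medians from -0.80 to -1.05, the anaphase-promoting complex list -0.20 and the G1/S list -1.30.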

How the data were processed

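RNA of HepG2 cells was measured on 6 Affymetrix arrays, 1 for each of 2 siRNAs and 3 times. The deposited values are intensity signals on a linear scale, made by the authors with MAS5 (MAS 5.0), per the submitters' processing notes; each array's trimmed mean is 100, so a change in total RNA per cell cannot be seen. The platform annotation gives 1 symbol to 41097 of 54675 probe sets, several to 1801 and none to 11777, and all names come from the first kind. Signals under 12.9 were set to that floor and log2 was taken; a gene was its probe set with the highest mean. Genes with a mean above the floor (11921) were fitted in limma 3.58.1 (R 4.3.3; lmFit, eBayes with trend) with siRNA and time as terms, and Benjamini-Hochberg adjustment was over all of them, at 0.05. A difference was called lower (fell) or higher (rose) past that threshold. Since no group had a replicate, each difference was tested against a spread taken from the departure from additivity, with 12.6 prior degrees of freedom; nothing covers the spread between cultures.

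On simulated data (200 genes changed among 11921) the fit found 79% of 2-fold and 99.5% of 4-fold changes at 24 h and 89% and 100% for the siRNA, with 6 to 14 false calls. The simulated noise was independent and normal, with the spread that limma itself had fitted. These shares therefore check the working of the fit and cannot show its error rates on the real arrays. The members and gene lists were chosen with earlier results of these data known. Signals are printed for 9 well-known members, for the members with the largest and smallest 24 h difference of each role, for all that did not pass at 24 h and for all that passed for the siRNA; other lists name up to 2 genes at either end of the absolute 24 h difference, and those that passed for the siRNA or that were named after their values were seen. Alternatives were quantile normalization, median scaling, other floors, a pseudocount, averaged probe sets, no _x_at or _s_at probe sets, no filter, no trend, and each array or time pair left out. RefSeq promoter windows were matched by symbol. The number of arrays limits the precision.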

Additional observations from a re-analysis of the deposited data

How the results depend on the processing

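No paired analysis was possible because each group has 1 array and the labels give no replicate numbers; time is already a term of the siRNA fit. Under each alternative with calls, all called members were lower. With the array or time pair left out in turn, the count ranged from 13 to 48 at 24 h against 0 h (47 as reported), from 18 to 47 at 24 h against 1.5 h (47) and from 0 to 13 for the siRNA (12); the difference between the arms could not be tested then. Without the filter on dim genes the counts were 0, 0 and 0, and without the trend 17, 19 and 0. Over all genes they were 1, 1 and 0 without the filter and 457, 405 and 45 without the trend, beside 1793, 1597 and 961 as reported. The mean of the probe sets gave 0 for the siRNA and 34 at 24 h, and leaving out _x_at and _s_at probe sets gave 31 of 38 members at 24 h against 1.5 h. The cause was not tested. The median difference at 24 h lay between -1.07 and -0.73 over the arrays left out, and that of the siRNA between -0.41 and -0.23. Of single members at 24 h, 666 of the alternative values kept their direction and side of the threshold, 143 lost the call, 5 gained it and 4 turned sign; for the siRNA these were 786, 98, 9 and 29. At 24 h BUB3 turned to -0.0872 with the mean of the probe sets; over the arrays left out, BUB3 ranged from -0.0464 to 0.22 and ECT2 from -0.46 to 0.28. For the siRNA, median scaling gave 0.0252 for BUB3, 0.0099 for CKS1B and 0.0195 for TTK, the mean of the probe sets gave -0.24 for CDK1, and leaving out _x_at and _s_at probe sets gave 0.0697 for BUB3. Over the arrays left out, the siRNA difference ranged from -0.21 to 0.19 for ASPM, -0.0121 to 0.16 for BUB1B, -0.11 to 0.0472 for BUB3, -0.17 to 0.053 for CDC25B, -0.15 to 0.0607 for CKS1B, -0.0169 to 0.46 for MAD2L1, -0.0941 to 0.0093 for SMC4 and -0.0882 to 0.0015 for TTK, none of which passed. All member signals lay above the floor on all arrays.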
